A study of Homo sapiens with 14 samples.

Results

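POLR3A forms the core of RNA polymerase III as its largest subunit. Its ChIP-seq regions in vehicle-treated T47D cells were examined where no region of any other list lay on them. T47D, an established line from breast cancer, has both the oestrogen and the progesterone receptor. All cells grew in the same serum- and insulin-containing medium and were given either ethanol as vehicle or P4, which is progesterone, for 1 h before chromatin immunoprecipitation and sequencing (ChIP-seq). The series holds 14 libraries, with 3 replicates each for POLR3A under vehicle, POLR3A under P4, the progesterone receptor (PR) under vehicle and PR under P4, and a pooled input for each treatment. There are 4 peak lists, since each pair of antibody and treatment has its own. The replicates of a group therefore share a list, so no difference could be set against the spread between replicates, and the library depth behind the lists is unknown. Nothing in the labels says that the replicates came from separate cultures.

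The members were chosen by the overlap of the lists themselves. A POLR3A vehicle region on chromosomes 1 to 22 or X was a member when it shared no base with a POLR3A region under P4, a PR region under vehicle or a PR region under P4. Of 29161 POLR3A vehicle regions, 10114 or 34.7% were members, out of 227513 regions in the 4 lists. Of all vehicle regions, 16907 or 58.0% had no POLR3A region under P4. A PR vehicle region removed part of these and left 13930. PR regions under P4 alone removed a further 3816. These counts follow from the rule and support nothing by themselves, since a region can miss a list by falling just under its threshold. The number also moves with the thresholds, to 1205 with vehicle regions of −log10 q of at least 5, and to 17075 when only regions of at least 5 in the other lists counted. When each list kept equally many of its strongest regions, it was 15855.

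RNA polymerase III makes transfer RNA, 5S ribosomal RNA and other short RNAs such as U6 and 7SK. It is placed at tRNA genes by TFIIIC, which reads the A box and B box inside the gene, and by TFIIIB, which holds the polymerase at the start. Its signal in ChIP-seq has also been described at promoters of protein-coding genes, which RNA polymerase II transcribes. PR is a nuclear receptor that progesterone activates to bind DNA. Regions of PR were also listed under vehicle, and 9411 POLR3A vehicle regions, 32.3%, overlapped one.

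Of the 9691 members on chromosomes with promoter windows, 256 or 2.64% (95% Wilson interval 2.34 to 2.98) had their summit in the promoter window of a protein-coding gene. A window runs from 250 bases before to 50 after the gene start. The interval covers counting error over regions only, and the share was 1.60% when regions within 500 bp counted as shared and 4.27% when only a reciprocal overlap of 50% did. The windows with the highest −log10 q are shown because they are the sequence on which the clearest of these summits lay. They are RefSeq sequences of GRCh38.p14, 5′ to 3′ along the gene, and the capitals mark the summit with the 10 bases on either side of it that fall in the window.
G3BP1, chr5:151771704-151772003, plus strand: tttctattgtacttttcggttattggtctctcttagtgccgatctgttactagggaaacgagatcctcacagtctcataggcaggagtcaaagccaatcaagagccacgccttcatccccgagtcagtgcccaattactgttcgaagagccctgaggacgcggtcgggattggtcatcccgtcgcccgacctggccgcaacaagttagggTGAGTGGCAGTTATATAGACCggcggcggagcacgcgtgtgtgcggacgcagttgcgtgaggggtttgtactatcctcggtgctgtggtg
TBC1D20, chr20:462484-462783, minus strand: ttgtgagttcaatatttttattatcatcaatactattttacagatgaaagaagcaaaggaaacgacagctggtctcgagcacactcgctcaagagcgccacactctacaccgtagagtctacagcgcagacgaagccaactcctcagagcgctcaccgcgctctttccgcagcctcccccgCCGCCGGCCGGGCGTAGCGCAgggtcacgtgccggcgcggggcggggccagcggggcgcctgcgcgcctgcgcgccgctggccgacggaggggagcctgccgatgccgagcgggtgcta
LYPLAL1, chr1:219173628-219173927, plus strand: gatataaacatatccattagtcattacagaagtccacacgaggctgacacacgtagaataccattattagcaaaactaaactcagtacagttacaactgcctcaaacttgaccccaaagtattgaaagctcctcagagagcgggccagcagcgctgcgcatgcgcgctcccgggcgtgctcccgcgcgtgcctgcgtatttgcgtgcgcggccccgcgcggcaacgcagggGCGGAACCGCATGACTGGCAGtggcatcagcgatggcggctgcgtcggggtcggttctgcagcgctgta
GNAS, chr20:58888930-58889229, plus strand: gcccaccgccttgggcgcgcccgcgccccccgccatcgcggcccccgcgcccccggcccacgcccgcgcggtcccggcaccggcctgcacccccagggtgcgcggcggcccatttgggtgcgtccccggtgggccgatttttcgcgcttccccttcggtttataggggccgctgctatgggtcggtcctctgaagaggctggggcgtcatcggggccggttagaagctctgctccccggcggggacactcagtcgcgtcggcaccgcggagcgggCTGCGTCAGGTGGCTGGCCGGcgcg
DDX5, chr17:64506240-64506539, minus strand: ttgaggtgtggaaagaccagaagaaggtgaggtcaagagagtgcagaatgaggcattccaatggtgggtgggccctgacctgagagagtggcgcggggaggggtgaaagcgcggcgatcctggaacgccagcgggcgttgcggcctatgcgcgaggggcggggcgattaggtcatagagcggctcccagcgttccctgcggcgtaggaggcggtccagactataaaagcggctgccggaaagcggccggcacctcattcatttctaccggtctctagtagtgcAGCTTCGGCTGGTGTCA
ANTKMT, chr16:720896-721195, plus strand: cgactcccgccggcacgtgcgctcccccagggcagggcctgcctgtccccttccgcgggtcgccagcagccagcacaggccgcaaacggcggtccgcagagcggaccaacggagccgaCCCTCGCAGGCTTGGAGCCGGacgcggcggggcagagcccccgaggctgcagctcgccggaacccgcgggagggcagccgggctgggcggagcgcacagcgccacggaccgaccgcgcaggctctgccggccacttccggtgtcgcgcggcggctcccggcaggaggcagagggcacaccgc

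G3BP1 encodes an RNA-binding protein of stress granules, and its summit lay 30 bases before the start. The region had a −log10 q of 10.54 and a fold enrichment of 5.90. TBC1D20, a regulator of Rab GTPases, had 10.19 and 5.74, with the summit 59 bases before the start. LYPLAL1, a lysophospholipase-like gene, had a −log10 q of 9.98 and the summit 9 bases before the start. At GNAS, which encodes the alpha subunit of the stimulatory G protein, the summit fell 35 bases inside the gene (−log10 q 9.56). At DDX5, an RNA helicase gene, it fell 43 bases inside (9.40). That these summits sat close to the start follows from the window by which they were chosen. ANTKMT, a lysine methyltransferase gene, had its summit 122 bases before the start and a −log10 q of 9.16. The remaining 4 of the 10 highest were CITED2, a partner of the CBP and p300 coactivators (8.91), GLMP (8.43), the actin regulator TWF1 (8.37) and ARID4A, a chromatin protein gene (8.27). CITED2 was the most isolated from POLR3A under P4, whose nearest region was 342227 bases away. At the other extreme, the POLR3A P4 region nearest to the G3BP1 member was 421 bases away, and that nearest to the GNAS member 428 bases.

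The 256 members lay in 283 windows of 270 genes, since some genes have several starts and 26 members fell in more than 1 window. Their median −log10 q was 3.35 and the median summit position was 74 bases before the start. The window bounds this position, since it reaches farther before the start than after it. Among all members with a summit within 1 kb of a start, the median lay 79 bases after it. A POLR3A P4 region lay within 500 bases of 71 of the 256, 27.7%, against 12.6% of all members. A PR P4 region lay within 500 bases of 116, 45.3%, against 22.6%. In contrast, 30 of the 256 were over 10 kb from every region of the other lists, as were 1621 of all 10114 members.

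The median G and C content was 67.7% (quartiles 62.3 and 72.0) in the 283 windows, against 64.0% in the 1273 windows that held the summit of another vehicle region and 62.3% in all 22132 windows. The median number of CG dinucleotides was 29, 26 and 21 in these groups. The 191 windows with a summit found in both treatments without PR had values like those of the members, 67.0% and 29. In the 191 windows with a summit under P4 alone without PR they were 63.0% and 25. Motifs were searched on both strands as exact letters. Estrogen response half-site, AP-1, NRF1, forkhead and GATA letters were searched as well and are not shown. The GC box GGGCGG was in 208 windows, 73.5% (68.1 to 78.3), against 63.5% with another vehicle summit and 56.3% of all windows. For both treatments without PR it was 71.2%, inside this interval, and for P4 alone without PR 55.0%. The ETS site CCGGAAG was in 47, 16.6% (12.7 to 21.4), against 28.8% with another vehicle summit and 12.8% of all windows. For both treatments and P4 alone it was 30.4% and 29.8%. The cAMP response element TGACGTCA was in 3, 1.06%, against 4.40% with another vehicle summit and 2.26% of all windows. For both treatments and P4 alone it was 8.90% and 2.09%.

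Letters tied to RNA polymerase III were also searched. The B box core GGTTCGA was in 3 of 283, 1.06% (0.361 to 3.07), against 1.02% with another vehicle summit and 0.944% of all windows. The A box core TGGCNNAGT was in 8, 2.83%, against 4.64% and 3.21%. Exact letters can miss a gene of the polymerase. The OR1F1 window, which holds a member's summit and the proline tRNA gene TRP-TGG3-5, matched neither core. These shares therefore do not measure how many windows hold such a gene. Runs of TTTTT, the terminator letters, were in 52, 18.4%, against 26.1% with another vehicle summit and 33.5% of all windows. For the hormone response element letters AGAACA the count was 21, 7.42% (4.90 to 11.1), against 8.88% with another vehicle summit, which lies inside that interval, and 11.7% of all windows. The CCAAT box CCAAT was in 32.9%, against 31.7% with another vehicle summit and 34.6% of all windows. The YY1 letters ATGGCGG were in 14.1%, against 19.95% and 6.99%. The TATA box TATAAA was in 3.18%, against 5.73% and 9.46%, and the E-box CACGTG in 14.1%, against 10.3% and 8.34%. In windows of both treatments without PR and of P4 alone without PR, TTTTT was in 21.5% and 28.8%. ATGGCGG was in 26.7% and 14.1%, and AGAACA in 11.0% and 10.5%. CCAAT was in 33.0% and 27.75%, the A box core in 5.24% and 3.665%, and the B box core in 1.57% and 0.524%. TATAAA was in 9.42% and 6.28%, and CACGTG in 7.85% and 11.5%. A match describes the letters of a window, and no test of these shares was made because the windows differ in base composition. The intervals of the motif shares count windows as separate, although 26 members fell in more than 1 window. They can therefore be too narrow and do not test whether 2 sets are alike.

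By the authors' scores the members formed the lower part of the vehicle list. The median −log10 q was 2.93 (quartiles 2.29 and 4.06, range 1.30 to 16.97), against 4.03 in the other 19047 vehicle regions, whose range reached 629.5. The median member sat at percentile 35.1 of the list. The strongest member ranked 1315 in the list, and 0 of the 500 strongest regions and 61 of the 2500 strongest were members. Among regions with −log10 q under 2, 51.2% were members, from 5 to 10 the share was 20.9%, from 10 to 20 it was 4.49%, and at 20 or more it was 0 of 1070. The fold enrichment differed less between the groups, with a median of 3.46 (range 1.49 to 7.97) in members and 3.54 in the other regions. These values describe what the rule chose and were not tested.

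**Figure D1:**
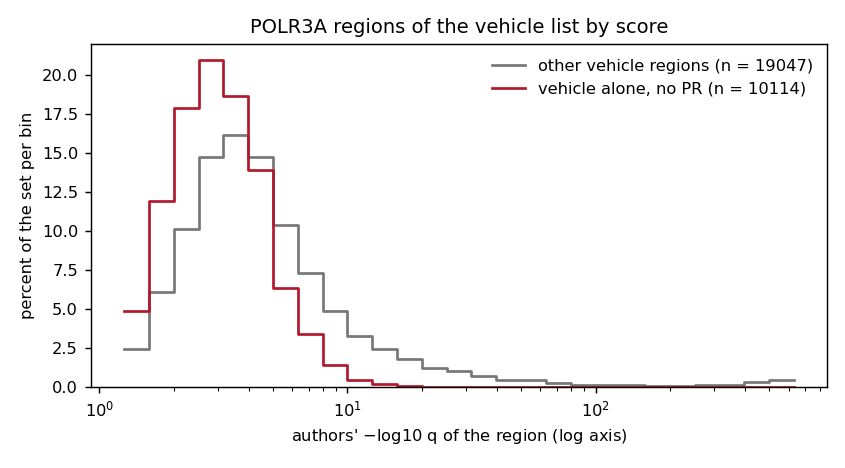
Distribution of the authors' −log10 q (log axis) in the 10114 members and the other 19047 POLR3A vehicle regions, as percent of each set per bin. The members end at 16.97, while the other regions run on to 629.5.

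Members were narrow. The median width was 242 bp against 311 bp for the other vehicle regions, and 1589 members, 15.7%, were at the narrowest width in the list, 192 bp, against 5.82% of the others. Together the members covered 2.73 Mb, 26.9% of the 10.15 Mb in the vehicle list. POLR3A regions under P4 alone without PR, 19930 in number, had a median width of 244 bp in their own list. The 2211 POLR3A regions found in both treatments without PR had a median width of 287 bp and a median −log10 q of 3.80.

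Many members lay close to a region that they did not touch. The nearest PR P4 region was a median of 2060 bases away, the nearest POLR3A P4 region 5814 bases and the nearest PR vehicle region 9083 bases. The longer the list, the shorter was this distance. Within 500 bases of a POLR3A P4 region were 1272 members, 12.6%, and within 10 kb were 60.3%. A region of any of the other lists lay within 500 bases of 3014 members, 29.8%, and 1621 members were over 10 kb from all of them. The scores changed little with this distance, with a median −log10 q of 2.93 for members under 500 bases from another list and 3.15 for those 10 kb or more away.

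**Figure D2:**
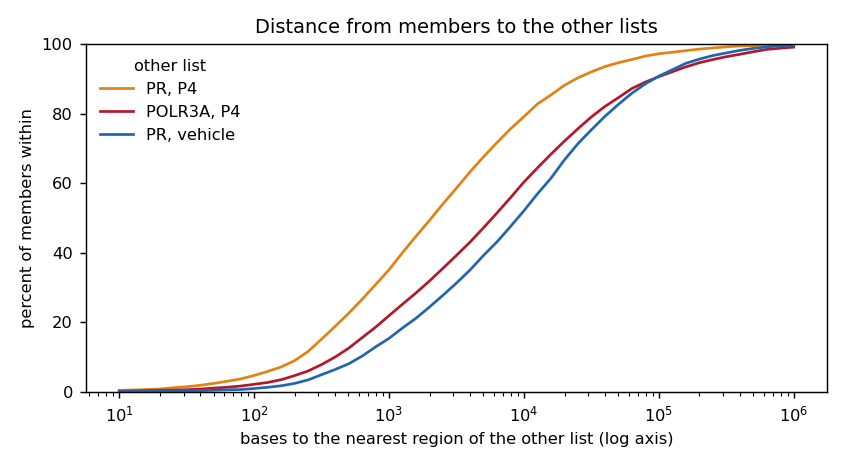
Percent of the 10114 members (vertical axis) with a region of each other list within the distance on the horizontal axis (bases, log axis). The PR P4 list lies nearest, with a median of 2060 bases, and the PR vehicle list farthest, with 9083 bases.

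At the 1-bp limit itself, regions on both sides had like scores. Members with a gap under 50 bases numbered 391, with a median −log10 q of 2.84 and a median fold of 3.37. Vehicle regions excluded by an overlap of at most 50 bases numbered 510, with medians of 2.93 and 3.40. A member on chromosome 12 (116708464 to 116708723) touched a POLR3A P4 region without sharing a base and had a −log10 q of 3.82. Members that touched a PR region lay on chromosome 11 (46176701 to 46176896, 4.19) and chromosome 19 (29212911 to 29213148, 4.19). Just outside were regions that shared 1 base with a PR region, on chromosome 1 (22578547 to 22579233, 9.02), chromosome 11 (66545699 to 66545942, 2.98) and chromosome 12 (55019904 to 55020116, 4.60).

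The strongest members were of unlike kinds. Of the 67 members with −log10 q of at least 10, 37 had a fold of at least 5 and 30 a lower fold. Those with the higher fold lay a median of 12690 bases from any region of the other lists, and 19 of the 37 were over 10 kb away from all of them. Those with the lower fold lay a median of 740 bases away, and 27 of the 30 had such a region within 5 kb. Of the 30, 8 lay over 1 Mb from any RefSeq gene, against 1 of the 37. The limits of 10 and 5 were set after the values had been seen.

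In the group of higher fold, the strongest member of all lay on chromosome 11 (86686016 to 86686347), 13.4 kb from the end of ME3, the gene of a mitochondrial malic enzyme, with a −log10 q of 16.97 and a fold of 7.73. The member with the highest fold, 7.97, lay on chromosome 7 (88625532 to 88625841, −log10 q 16.5), 133.9 kb from ZNF804B and 995938 bases from the nearest POLR3A P4 region. Others lay inside the spans of LUZP2 on chromosome 11 (13.7, fold 7.04) and PARD3B, a cell polarity gene, on chromosome 2 (13.52, fold 7.18). For PARD3B the nearest POLR3A P4 region was 947192 bases away. A member on chromosome 3 (176135340 to 176135622, 13.59, fold 5.20) was 324.8 kb from NAALADL2, and 193664 bases from a POLR3A P4 region. A member inside GABRG1, a GABA receptor gene, had the same −log10 q and fold as that in PARD3B. Across these members the nearest POLR3A P4 region was 17145 to 995938 bases away, although a PR P4 region lay 1959 bases from the member near ME3. The gene table gives spans only, so whether these members are exonic or intronic was not determined.

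In the group of lower fold were a member on chromosome 4 (49134703 to 49134949, −log10 q 16.48, fold 2.88) and members on chromosome 1 at 122777674 to 122777882 (15.41, fold 3.62) and 124210947 to 124211151 (15.22, fold 2.66), which lay 1206 and 2639 kb from the nearest gene of any kind. Members of this kind also lay on chromosome 22 (11815446 to 11815759, 14.71, fold 4.82), chromosome 8 (85765253 to 85765480, 14.2, fold 2.91) and chromosome 13 (16647789 to 16648006, 13.83, fold 3.72), the last 1529 kb from a gene. On chromosome 5 a member at 17586836 to 17587034 (13.66, fold 3.74) was 1.08 kb from TAF11L7 and 358 bases from a POLR3A P4 region. The folds of these members ran from 2.66 to 4.82, beside 3.46 for the median member. Sequence outside the promoter windows was not used here, so repeats, assembly gaps and shared reads at these members were not examined.

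Members over 1 Mb from any gene numbered 155, or 1.53%, against 5.61% of the other vehicle regions and 1.80% of the regions under P4 alone. Their median −log10 q was 4.11, and 32 of them were on chromosome 11. Their share among members rose with score, from 0.588% at −log10 q under 2 to 4.04% from 5 to 10 and 13.4% (9 of 67) from 10 to 20. The share was also higher in the upper classes of the other sets, at 1.85% under 2 and 18.3% from 10 to 20 in the other vehicle regions, and 1.31% and 38.6% under P4 alone.

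tRNA genes, the main targets of the polymerase, were nearly absent from the members. Regions at tRNA genes were 0.1285% of members and 0.0552% of those under P4 alone without PR, so this scarcity is not particular to members. The share was 7.78% in both treatments without PR and 1.48% in the other vehicle regions. Of 429 nuclear tRNA genes, 353 had a POLR3A vehicle region on the gene or within 100 bp, 82.3%, and 13 had a member, 3.03%, against 9.59% of genes of any kind, most of which are far longer. In all 13 the region overlapped the gene body, and in 10 the summit lay inside it. Over all 13 the summit lay a median of 24.5 bases from the midpoint of the gene. The median −log10 q of the 13 was 5.63, above that of all members and far below the 286.6 of other vehicle regions at tRNA genes. Of the 13, 7 were on chromosome 1, 5 on chromosome 6 and 1 on chromosome 16. A POLR3A P4 region lay within 1 kb of 3 of these genes and a PR region within 1 kb of 2.

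The strongest was TRQ-CTG3-1, a glutamine tRNA gene on chromosome 1 (145459658 to 145459729), with a −log10 q of 7.69 and a fold of 4.74. Its nearest POLR3A P4 region was 5078 bases away. The aspartate tRNA genes TRD-GTC2-5 (6.64), TRD-GTC2-2 (6.48) and TRD-GTC2-3 (5.14) followed on the same chromosome, with folds of 2.86, 2.97 and 2.67. These are near-identical copies of a tandem array that can share reads, and each had a POLR3A P4 region within 1 kb, at 722, 855 and 795 bases. The asparagine tRNA genes TRN-GTT9-1 and TRN-GTT7-1, also on chromosome 1, had −log10 q of 5.88 and 4.89, and the histidine gene TRH-GTG1-3 had 3.14.

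On chromosome 6 the alanine tRNA genes were a group of their own, with both genes listed as TRNAA-AGC (26819109 to 26819181 and 26771080 to 26771152) at 6.43 and 6.38 and TRA-AGC9-1 at 5.22. Their folds were 4.89, 5.03 and 4.55. The glutamine gene TRQ-CTG1-1 (18836171 to 18836242) had 4.89 and lay farthest from the POLR3A P4 list, at 331937 bases, and from the next tRNA gene, at 7450 kb. The isoleucine gene TRI-AAT3-1 had 3.53. The proline gene TRP-TGG3-5 on chromosome 16 (3188094 to 3188165) had 5.63. Beyond the aspartate array, the nearest POLR3A P4 region was over 1 kb from every one of these genes.

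The other RNA polymerase III genes listed here were reached at their flanks only. None of 29 genes of the ribosomal RNA class, which is not limited to 5S, had a member within 100 bp. All of them had a vehicle region there. Within 1 kb, members lay beside RNA5S12 (−log10 q 10.09, fold 2.80), RNA5S4 (9.43), RNA5S7 (6.58) and RNA5S9 (4.24), 4 of 17 genes of the 5S array, whose copies can share reads. This is 23.5%, near the 22.9% of protein-coding genes with a member within 1 kb of their far longer spans. The nearest POLR3A P4 regions were 214 to 342 bases away. Of 20 other listed genes, 3 had a member within 1 kb. They were RNU6-2, a U6 gene (4.89), VTRNA1-3, a vault RNA gene (4.75), and RNY1, a Y RNA gene (4.19), with POLR3A P4 regions 419, 377 and 232 bases from the members. Of 13 small nuclear RNA genes of RNA polymerase II, 0 had a member and 13 had a vehicle region.

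Most members lay in or near protein-coding genes. The summit of 5315, 52.6% (51.6 to 53.5), was inside a protein-coding span, against 45.6% in the other vehicle regions. In the regions under P4 alone without PR it was 53.55%, close to the members, and in both treatments without PR 48.3%. Of the members, 35.3% were in no gene span of any kind. At most 1 kb from an end of a protein-coding gene were 1696 members, 16.8% (16.1 to 17.5). The same measure was 27.3% (26.7 to 27.9) in the other vehicle regions, 28.5% (26.7 to 30.5) in the regions found in both treatments without PR and 10.4% (10.0 to 10.9) in those under P4 alone without PR. The members thus lay between the groups, and regions are not replicates, so no test was made.

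This order was also there within classes of score. From −log10 q 2 to 3, 16.4% of members were within 1 kb of an end, against 24.7% of regions in both treatments without PR and 10.1% under P4 alone. From 3 to 5 the values were 17.5%, 33.2% and 11.3%, and from 5 to 10 they were 18.6%, 36.2% and 11.4%. The scores of the P4 list come from another list, so a class does not mean the same signal in both.

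Around gene starts the members formed a peak. Summits within 1 kb of a protein-coding start numbered 1219 of 9691, of which 484 or 39.7% were before the start. The 500 bases after the start held 5.34% of members and the 500 before it 3.21%. For regions in both treatments these values were 11.7% and 7.28%. For P4 alone they were 1.79% and 1.60%, a lower rise. The outermost bins of that set held 0.57% before the start and 0.66% after it. Farther than 1 kb on either side, no bin of these sets held more than 1.49%. The median distance from a member's summit to the nearest start was 24.5 kb.

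**Figure D3:**
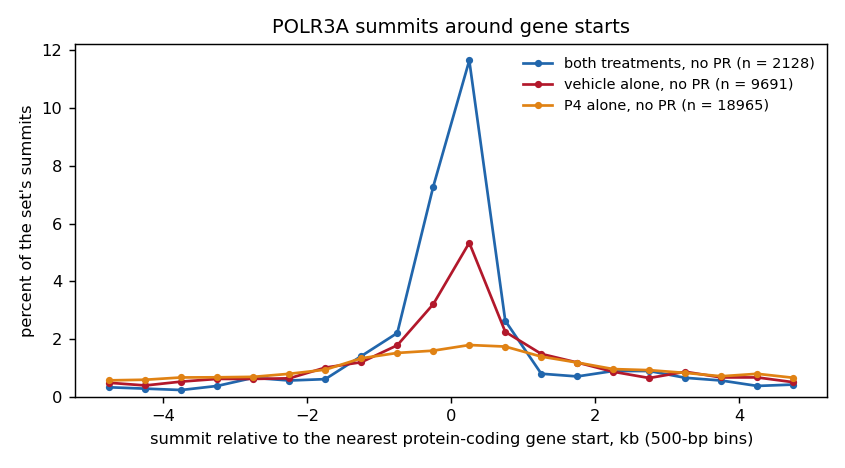
Percent of summits in 500-bp bins around the nearest protein-coding gene start (kb, negative before the start) for members, regions in both treatments without PR and regions under P4 alone without PR. The members peak at 5.34% in the bin after the start, between 11.7% and 1.79% for the other sets.

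Seen by gene, many starts with a member were not empty in the other lists. A member lay within 1 kb of 1652 of 22132 protein-coding starts, 7.46%. Of these, 658 or 39.8% had a POLR3A P4 region within the same 1 kb, against 29.6% of all starts, and 971 or 58.8% had a PR P4 region, against 44.5%. A second vehicle region that was no member was at 419, 25.4%. At 506 starts, 30.6%, the member was the only region of any list within 1 kb.

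Over the gene span with 1 kb on either side, 4548 of 19821 protein-coding genes, 22.9%, had a member, and 44.2% had any POLR3A vehicle region. Longer genes have more room, so the median span is given with each list, beside 24.5 kb for all protein-coding genes. Among translation initiation factor genes, 19 of 36 had a member, 52.8%, and 30 had a vehicle region (median span 19.5 kb). At their starts it was 11 of 42, 26.2%, against 7.46% of all starts. EIF3M and EIF3A, subunits of the eIF3 complex that loads the small ribosomal subunit, had −log10 q of 6.14 and 6.01. EIF3C, which has a near-identical copy that can share its reads, had 5.82, and EIF2B5, a subunit of the exchange factor for eIF2, had 4.78. The EIF3M member lay 13 to 57 bases from regions of the other lists, and the EIF3A member 4940 bases or more.

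Of 30 genes for RNA polymerase III subunits and factors, 10 had a member, 33.3% (median span 26.4 kb), against 22.9% of all protein-coding genes. Any vehicle region was at 23 of the 30, 76.7%, against 44.25% of all. Of their 32 starts, 4 had a member. POLR3GL, an alternative to the POLR3G subunit, had a −log10 q of 5.11, followed by POLR3K (3.53), POLR3D (3.35) and GTF3C5, a TFIIIC subunit (3.33). POLR3A itself carried a member 675 bases inside the gene with a −log10 q of 1.45, where the lowest in the list was 1.30, and lay 182 to 690 bases from regions of the other lists. This gene was named after its values had been seen.

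Aminoacyl-tRNA synthetase genes, which charge tRNAs, had a member in 5 of 20 (median span 35.0 kb), and at 0 of 21 starts. They were LARS1 (4.70), IARS1 (3.63), AARS1 (3.51), KARS1 (3.23) and MARS1, the last named beyond the highest 4. Cytosolic ribosomal protein genes had a member in 20 of 86, 23.3%, at a median span of 5.05 kb. RPL35A had the highest value of these, 12.3, with the region just past the gene's end and a POLR3A P4 region 363 bases away. RPL27A (8.37), RPL29 (4.62) and RPLP2 (4.52) followed, and the nearest POLR3A P4 region was 224802 bases from the RPL29 member. Mitochondrial ribosomal protein genes had a member in 11 of 77, 14.3%, led by MRPS6 (9.17), MRPL4 (6.41), MRPL30 (4.89) and MRPS2 (4.75). The share was near or below that of all protein-coding genes in these 3 lists.

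Genes of the luminal breast lineage carried members in 8 of 16 cases (median span 29.6 kb). GATA3, a luminal transcription factor, had a member at −log10 q 5.20. PGR, the gene of the receptor, had 4.29, FOXA1, a factor that opens chromatin, 4.19, and SPDEF 3.87. The GATA3 member was 175 bases from a PR P4 region and 652 bases from a POLR3A P4 region. Steroid receptor coregulator genes, which are long (median span 110.9 kb), had a member in 11 of 23, 47.8%, led by PPARGC1B (5.38), PPARGC1A (5.22), NCOA2 (5.20) and NCOR1 (4.89). At their starts it was 2 of 33. Of 20 PR target genes, 6 had a member, and 0 of 26 starts did. They included FKBP5, a receptor chaperone (5.61), ELF5 (5.48), STAT5B (4.94) and KLF9 (3.53). By the rule no member shares a base with a PR region, but some lie close to one. The nearest PR P4 region was 126 bases from the ELF5 member, 1166 from that of STAT5B, 3260 from that of FKBP5 and 8751 from that of KLF9.

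Immediate early genes had a member in 4 of 24, 16.7%, led by FOSL2 (4.19, summit 14 bases before the start), FOSL1 (3.50), ATF3 (3.25) and ZFP36 (2.18). Replication-dependent histone genes had a member at 3 of 69, 4.35%, the lowest share among the protein-coding lists after the olfactory receptors, although 76.8% had a vehicle region, and their median span was 0.494 kb. They were H2BC18 (4.71), H3C4 (2.84) and H2BC10 (2.12). Genes with ZNF symbols had a member in 102 of 477, 21.4%, led by ZNF410 (12.7), ZNF100 (9.79), ZNF212 (8.05) and ZNF814 (7.21). Solute carrier genes had 97 of 379, 25.6%, led by SLC5A3 (9.17), SLC38A10 (6.52), SLC6A9 (6.41) and SLC25A25 (6.35). The SLC5A3 and MRPS6 member is the same region. Of 387 olfactory receptor genes 3 had a member. The strongest, at OR1F1 (5.63), was the region of TRP-TGG3-5, and OR9Q1 (2.56) and OR10AD1 (1.38) were the others.

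**Figure D4:**
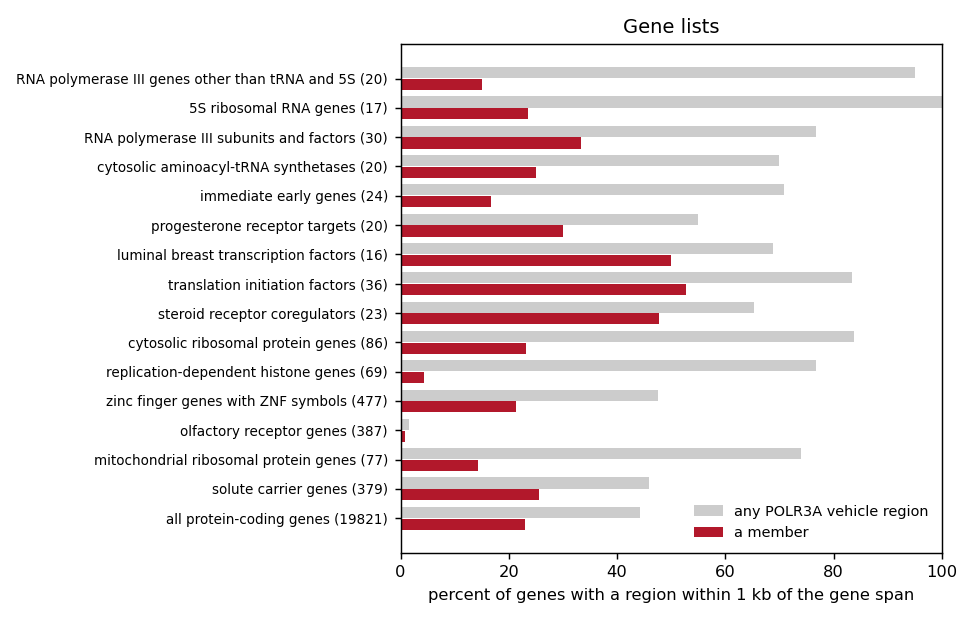
Percent of genes of each list with a member (red) and with any POLR3A vehicle region (grey) within 1 kb of the gene span; the number of genes is in brackets. Translation initiation factors stand at 52.8% and all protein-coding genes at 22.9%, with list spans that differ in length.

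Of 3987 protein-coding genes with a member in the span, 2952 had 1 and 72 had 5 or more, and the median length of the latter was 198.4 kb. GSE1, a gene of a coregulator protein on chromosome 16, had 12 among 147 vehicle regions, 8.16% beside 34.7% in the whole list, and 203 POLR3A P4 regions, with −log10 q from 1.87 to 6.97. SRGAP2B on chromosome 1, a duplicated copy of SRGAP2 with which it can share reads, had 11 among 24 vehicle regions, 45.8%. ANXA8, KCNMA1 and SHANK2 had 9 each, 34.6%, 22.5% and 37.5% of their vehicle regions. GPHN, which encodes a scaffold protein of inhibitory synapses, had 8 among 20. It was tied with MAD1L1, TNS3 and TSPAN9, which had 8 each among 14, 24 and 10. Over all protein-coding spans there were 4.37 members per Mb, against 23.7 in GSE1, 52.9 in SRGAP2B and 6.52 in GPHN. MAD1L1, TNS3 and TSPAN9 had 19.2, 26.0 and 38.2 per Mb, more than GPHN. KCNMA1, a potassium channel gene of 768.2 kb, also held 120 POLR3A P4 regions, of which 39 were under P4 alone without PR.

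The nearest other member, on either side, was a median of 29.9 kb away, and 2741, 27.1% (26.2 to 28.0), had another within 10 kb. The same share was 63.8% in the whole vehicle list, 43.2% for P4 alone and 16.3% for both treatments without PR. These sets differ in size, which moves the share, so no order is read from it. Joined at 10 kb, members made 8556 groups, of which 7373 were single regions and 28 held 5 or more. The largest held 9 members in 34.0 kb of chromosome 4 (9327206 to 9361206), over the near-identical USP17L gene copies, among 22 vehicle regions and 8 POLR3A P4 regions. A group of 8 on chromosome 15 (84184811 to 84213651) held 4 POLR3A P4 regions, and a group of 7 on chromosome 5 (69639488 to 69664433) held 2. A group of 7 on chromosome 19 (37270893 to 37295869) and another of 7 on chromosome 2 (91498671 to 91525624) held 0 POLR3A P4 regions among 8 vehicle regions each.

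The share of vehicle regions that were members differed between chromosomes. It was lowest on chromosome 13, 27.7% (24.1 to 31.6), chromosome 11, 29.6% (27.8 to 31.4), and chromosome 21, 29.8% (25.5 to 34.5). It was highest on chromosome 22, 45.9% (41.6 to 50.4), chromosome 2, 45.0% (41.7 to 48.4), and chromosome 19, 43.8% (41.0 to 46.6). Chromosome 1 held the most members, 931, and 30.3% of its regions. Set against regions under P4 alone without PR, there were 0.360 members per such region on chromosome 20 and 0.841 on the X chromosome. The number of copies of each chromosome in these cells was not measured here.

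**Figure D5:**
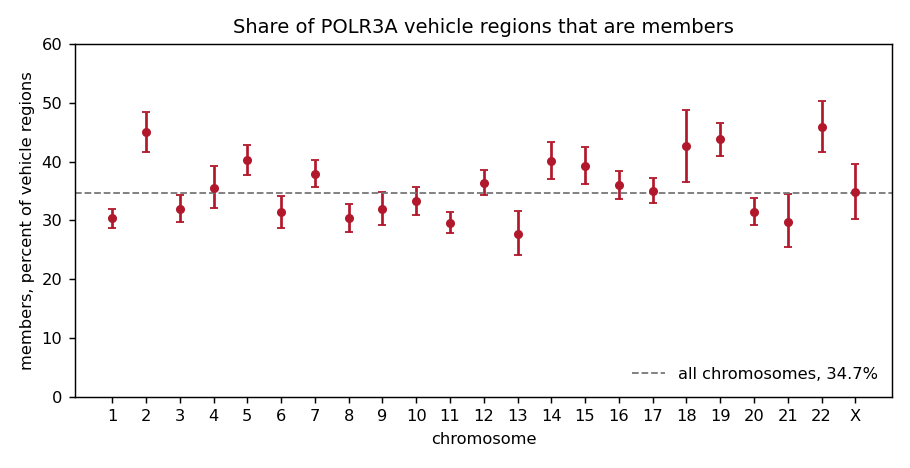
Percent of POLR3A vehicle regions on each chromosome that are members, with 95% Wilson intervals (counting error only); the dashed line is 34.7% over all chromosomes. Chromosome 22 is highest at 45.9% and chromosome 13 lowest at 27.7%.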

How the data were processed

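POLR3A and PR were immunoprecipitated from T47D cells under vehicle or P4. The submitters' processing notes name cutadapt, Bowtie2, MACS2 and the build hg38, with no role. Control, threshold and pooling of replicates are not given in the sources used here. Each deposited list gives, for a region, a whole-number score, a fold enrichment ratio, a −log10 p (not used here), a −log10 q and the summit offset. These are the authors' own values and served only to describe or rank regions within a list. No read counts are given, so depth and its precision are unknown, and the 2 inputs were not analysed here.

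From the lists, overlaps of at least 1 bp were computed with numpy 2.4.6 and pandas 2.3.3. Bedtools 2.31.1 gave the same 10114 members. The code was tested on simulated regions. Genes and promoter windows were those of RefSeq GRCh38.p14. Gene spans were kept for each chromosome up to the point where start positions fell back, which left 58419 of 59098. Promoter windows matched 15812 of 19821 protein-coding genes. No promoter window was listed for chromosome 8, so measures of gene starts leave out its members. Wilson intervals are at 95%.

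No test was made, since each group has a single list. Named were the members or genes of highest −log10 q of each class (12 strongest members, 12 tRNA genes, 10 promoter windows with 6 printed, 4 genes a gene list) and the 6 genes with the most members. The 13 members at tRNA genes were all named, as were MARS1, the genes tied with GPHN and, at an equal value, GABRG1 beside PARD3B. Members, gene lists, motifs and settings were chosen with earlier results of these data known. A further named result is not reported here. Alternatives were thresholds of −log10 q, the overlap rule, list length and distances.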

Additional observations from a re-analysis of the deposited data

Results flagged for a closer look

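Vehicle POLR3A regions outside chromosomes 1 to 22 and X were in no comparison. By the same overlap rule, 26 of 95 on chromosome Y had no region of another list on them, 27.4%, with a median −log10 q of 3.79 and a highest value of 9.62. Of 712 on sequences outside the chromosomes, 146 had none, 20.5%, with a median of 4.07 and a highest value of 19.6. The reason for looking again is only that these regions carry signal in data left out of the report. No list of the input was used here, so a background level was not tested.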

How the results depend on the processing

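No paired analysis was possible because the 3 replicates of each group share 1 peak list, and leaving out a replicate was not possible for the same reason. With vehicle regions of −log10 q of at least 5, members numbered 1205. Then 18.2% lay at most 1 kb from an end of a protein-coding gene, 43.4% overlapped a protein-coding span, 3.08% had the summit in a promoter window and 8.05% lay within 10 kb of another member, with median −log10 q of 6.08 and median fold of 4.55. With only regions of at least 5 counted in the other lists, these were 17075 members, 22.2%, 4.06% in a promoter window, 45.0% within 10 kb, a median −log10 q of 3.10 and 20 tRNA genes. With a reciprocal overlap of 50%, they were 16357 members, 22.6%, 55.8% in a span, 4.27%, 44.7%, 3.07 and 24 tRNA genes. With regions within 500 bp counted as shared, 7107 members remained, with 12.1%, 51.9%, 1.60% and 18.0%. With lists of equal length, there were 15855 members, 21.4%, 3.66%, 42.5% and a median −log10 q of 3.045. By distance, 11.9% lay within 500 bp of a gene end, 35.3% within 5 kb and 15.6% within 1 kb from the summit; 61.4% had another member within 50 kb, and the summit lay in a span in 52.6%, against 53.6% by any overlap. The number of tRNA genes was 9 to 17 under the other settings, and 13 without a window around the gene. Without members over 1 Mb from any gene, a setting chosen after seeing the data, 9959 members were left and no share or median left the interval of the reported one. The cause of these shifts was not tested.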

Other observations

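Short RNA genes outside the lists of the report carried few members. Of 1911 microRNA genes, 16 had a member within 100 bp, 0.837%, against 9.59% of genes of any kind, most of which are far longer, and 71 had any vehicle region. The strongest were at MIR3615 on chromosome 17 (−log10 q 5.73, summit inside the hairpin gene) and MIR3621 on chromosome 9 (5.50, summit outside it). MIR3652 (5.07) and MIR5703 (3.53) also held the summit. Of 1190 small nucleolar RNA genes 4 had a member, 0.336%, and 31 had any vehicle region, and SNORA10, a guide of RNA modification, held the summit of its region (3.59). Of 149 genes in the small nuclear RNA class 1 had a member, SNAR-I on chromosome 3 (8.09, fold 4.01), and 73 had a vehicle region. Among pseudogenes, 152 of 15048 had a member, 1.01%, and among those marked as transcribed, 156 of 1221, 12.8%, at median lengths of 643 bp and 9200 bp.

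The authors' scores of members fall on repeated values. The 10114 members had 2431 distinct pairs of fold and −log10 q, and 8680, 85.8%, shared both values with another member, against 79.0% of the other vehicle regions among themselves. The most frequent pair, a fold of 3.72 with a −log10 q of 2.93, was at 373 members.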
